A study of Mus musculus with 72 samples.

Results

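The 10 astrocyte maturation genes Gfap, Aqp4, Aldh1l1, Slc1a2, Slc1a3, Gja1, Gjb6, Glul, S100b and Aldoc were followed through 72 RNA-seq libraries of neonatal mouse brain. A member was a row of the count table whose identifier carried one of these symbols, and each symbol matched 1 row, giving 10 of 55401 genes. Astrocytes arise from radial glia around birth and acquire their mature functions during the first postnatal weeks. A mature astrocyte takes up glutamate from synapses and turns it into glutamine, moves water and potassium around vessels, and is joined to its neighbours by gap junctions. The genes of these functions are commonly read as markers of astrocyte maturation.

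Pups were C57Bl/6NTac mice of both sexes (C57Bl/6 in the labels), and each library is taken here as 1 pup, since no source used here describes pooling. PND1 pups were exposed only in utero, through dams that carried an osmotic minipump giving morphine, an opioid agonist, at 10 mg/kg/day or giving saline. PND14 pups received morphine at 10 mg/kg or saline by injection 2 times a day after birth, and 3-Tri pups had both the pump before birth and the injections after it. PND1 held 4 female and 6 male morphine pups, against 7 female and 7 male saline pups, taken on postnatal day 1. PND14 and 3-Tri held 6 pups of each sex and drug, with the 12 pups of a drug drawn from 2 ID numbers (the number that opens a sample ID, of unstated meaning) that the other drug did not share, and were taken 6 h after their final injection, at postnatal day 14. The study's methods name the right hemisphere as the tissue and the submitters' design text names the cortex, with day 15 for the PND14 cohort. PND1 pups and day 14 pups differed in age, in cohort and in how saline was given, and these cannot be told apart.

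In mm10, with the GENCODE M21 annotation, Gfap (ENSMUSG00000020932.14) lies at chr11:102887336-102900912 on the minus strand and Aqp4 (ENSMUSG00000024411.11) at chr18:15389496-15410982 on the minus strand. Slc1a2 (ENSMUSG00000005089.15) lies at chr2:102658659-102790784 on the plus strand and its paralog Slc1a3 (ENSMUSG00000005360.14) at chr15:8634124-8710764 on the minus strand. The connexin genes Gja1 (ENSMUSG00000050953.10) and Gjb6 (ENSMUSG00000040055.9) lie at chr10:56377330-56402513 on the plus strand and chr14:57123303-57133611 on the minus strand. Glul (ENSMUSG00000026473.16) is at chr1:153899944-153909723, S100b (ENSMUSG00000033208.7) at chr10:76253853-76261159, Aldoc (ENSMUSG00000017390.15) at chr11:78322968-78327781 and Aldh1l1 (ENSMUSG00000030088.15) at chr6:90486427-90600203, all on the plus strand. Exons of Aldh1l1, Slc1a2 and Glul share bases with another gene (Gm15756 and Gm45901, Gm13872, and Mir8114 and Teddm2), and no source used here states the strand setting of the counting, so reads from these partners cannot be separated.

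Total counts per library ranged over 20742862 to 27333125 in PND1, 4407544 to 21404819 in PND14 and 3113919 to 19938980 in 3-Tri. Genes of the sex chromosomes went against the gender label in 4 of 24 PND1 libraries, 0 of 24 PND14 libraries and 12 of 24 3-Tri libraries, so male and female below are the labels. The label of brain fitted 15 neuronal markers, at a summed 8370 to 9325 CPM (counts scaled to a common library size) in PND14 saline libraries, against 5115 to 5666 CPM in PND1 saline libraries. These markers cannot tell the hemisphere from the cortex. Forebrain markers (9 genes) summed to 740 to 851 CPM in PND14 saline libraries, against 776 to 1155 CPM in PND1 saline libraries. Cerebellar markers (11 genes) summed to 214 to 293 CPM, against 234 to 456 CPM. Hindbrain and spinal cord markers (20 genes) summed to 5.82 to 13.2 CPM in PND14 saline libraries, against 21.9 to 98.6 CPM in PND1 saline libraries. PND1 saline libraries thus held more RNA of these markers. Whether this came with the tissue taken or with age was not tested, and which tissue was taken was not settled. CPM values here are scaled by the trimmed mean of M values (TMM) over all 72 libraries, and all 10 genes passed the filter on low counts in every comparison. A DEG had an adjusted p under 0.05 in edgeR's quasi-likelihood test with Benjamini-Hochberg adjustment over all genes tested.

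The sequence before a RefSeq transcription start is shown for 4 members, because 3 of them (S100b, Slc1a2 and Gfap) had the largest changes with age and Aldh1l1 had the smallest. RefSeq promoters of GRCm38.p6, which is the mm10 build, matched 9 of the 10 members, and each stretch runs from 250 bases before the start to 10 after it, read 5′ to 3′ on the strand of the gene. Capitals mark a match to TTGGCA, 1 arm of the nuclear factor I site, or to TTCNNNGAA, the STAT site, both of which are read by factors known in astrocyte formation.
S100b: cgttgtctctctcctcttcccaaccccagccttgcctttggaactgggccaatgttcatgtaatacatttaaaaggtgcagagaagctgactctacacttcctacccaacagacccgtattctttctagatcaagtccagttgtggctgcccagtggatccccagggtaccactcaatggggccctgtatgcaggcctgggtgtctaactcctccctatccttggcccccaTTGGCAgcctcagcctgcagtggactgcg
Slc1a2: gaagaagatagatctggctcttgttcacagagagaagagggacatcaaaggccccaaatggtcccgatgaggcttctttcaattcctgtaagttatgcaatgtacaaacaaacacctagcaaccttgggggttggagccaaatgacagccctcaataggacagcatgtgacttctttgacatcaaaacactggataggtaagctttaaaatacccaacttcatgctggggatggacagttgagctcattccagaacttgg
Gfap: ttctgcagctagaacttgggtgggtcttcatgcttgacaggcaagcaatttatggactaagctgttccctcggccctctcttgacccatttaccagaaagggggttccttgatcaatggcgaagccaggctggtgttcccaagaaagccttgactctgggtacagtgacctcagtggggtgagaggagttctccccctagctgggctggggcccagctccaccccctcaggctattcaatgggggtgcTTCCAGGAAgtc
Aldh1l1: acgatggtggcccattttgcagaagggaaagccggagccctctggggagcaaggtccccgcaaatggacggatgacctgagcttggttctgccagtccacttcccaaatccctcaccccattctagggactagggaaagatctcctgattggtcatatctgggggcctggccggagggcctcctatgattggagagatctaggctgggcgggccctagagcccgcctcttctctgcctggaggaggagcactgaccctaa
The S100b stretch is chr10:76253586-76253845 (plus strand), the Slc1a2 stretch chr2:102706188-102706447 (plus), the Gfap stretch chr11:102897191-102897450 (minus) and the Aldh1l1 stretch chr6:90550543-90550802 (plus). Matches were searched on both strands in 300 bases, from 250 before to 50 after the start. TTGGCA was found in S100b, with its first base 19 before the start, and in Aldoc, so in 2 members, and 14.1% of 32851 RefSeq promoters of this length held it. TTCNNNGAA was found in Gfap, 2 bases before the start, in Slc1a3 and in Aldoc, so in 3 members, against 8.3% of all promoters. The full nuclear factor I site, a palindrome of which TTGGCA can be an arm, was in 0 members and 0.0365% of promoters, and the SOX site ACAAAG was in 0 members and 18.7% of promoters. Slc1a2 and Aldh1l1, at opposite ends of the changes with age described next, held none of the 4 motifs in this window. The Slc1a2, Aldh1l1 and Gfap stretches lie inside the gene spans given above, so they belong to an inner start. The outermost starts of these genes were not searched. Aldoc had more than 1 promoter, and its TTGGCA and TTCNNNGAA lay in different ones, while the shares count single promoters.

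Between PND1 and PND14 saline pups, 9 of the 10 genes rose and Aldh1l1 did not pass the test. Slc1a2 and S100b rose 17.1-fold and 16.9-fold, Gfap 6.32-fold and Aqp4 4.70-fold, and the other risers between 2.35-fold and 3.75-fold. Of 21059 genes tested, 41.9% were higher and 44% lower in PND14 saline pups, so most genes of the brain differed between the cohorts. The median log2FC was 1.90 over the 10 genes and -0.03 over all genes. The 12 PND14 and 14 PND1 saline libraries did not overlap for any of the 9 risers, and 48.7% of 22010 genes were without overlap in the same comparison. In bulk tissue, more astrocytes and more RNA per astrocyte cannot be told apart.

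The members of glutamate clearance were Slc1a2, Slc1a3 and Glul. Slc1a2 encodes GLT-1, the main glutamate transporter of the mature forebrain, and Slc1a3 encodes GLAST, the transporter already used by radial glia. Slc1a2 had 2489, 3013 and 3423 CPM as lowest, median and highest value in PND14 saline pups, against 147, 170 and 201 CPM in PND1 saline pups. Its mean was 2973 ± 269 CPM (SD, n = 12) in PND14 and 174 ± 16.8 CPM (SD, n = 14) in PND1, with a log2FC of 4.09 (SE 0.052, edgeR adjusted p = 4.31e-42), the 73rd highest of all genes tested. Slc1a3 had 576, 599 and 729 CPM in PND14 saline pups, against 196, 256 and 283 CPM in PND1 saline pups. The increase of Slc1a3 was 2.44-fold (log2FC 1.28, SE 0.046, edgeR adjusted p = 1.38e-26), the 2018th highest. Glul encodes glutamine synthetase, which converts the glutamate taken up, and had 747, 816 and 883 CPM in PND14 saline pups, against 186, 214 and 252 CPM in PND1 saline pups. Its rise was 3.73-fold (log2FC 1.90, SE 0.038, edgeR adjusted p = 1.87e-35).

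Because the transporters are read in the same library, their ratio per kilobase of exon does not depend on how libraries were scaled. Slc1a2 over Slc1a3 was 2.75, 3.14 and 3.36 in PND14 saline pups, as lowest, median and highest value, against 0.368, 0.448 and 0.4995 in PND1 saline pups. Slc1a3 was thus the more abundant transporter per kilobase in every PND1 saline library and Slc1a2 in every PND14 saline library. Morphine pups lay at 0.391 to 0.504 in PND1 and 2.59 to 3.30 in PND14, and 3-Tri pups at 2.75 to 3.16 under morphine and 2.95 to 3.45 under saline. The ratio was chosen after the levels were seen and was not tested.

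**Figure D1:**
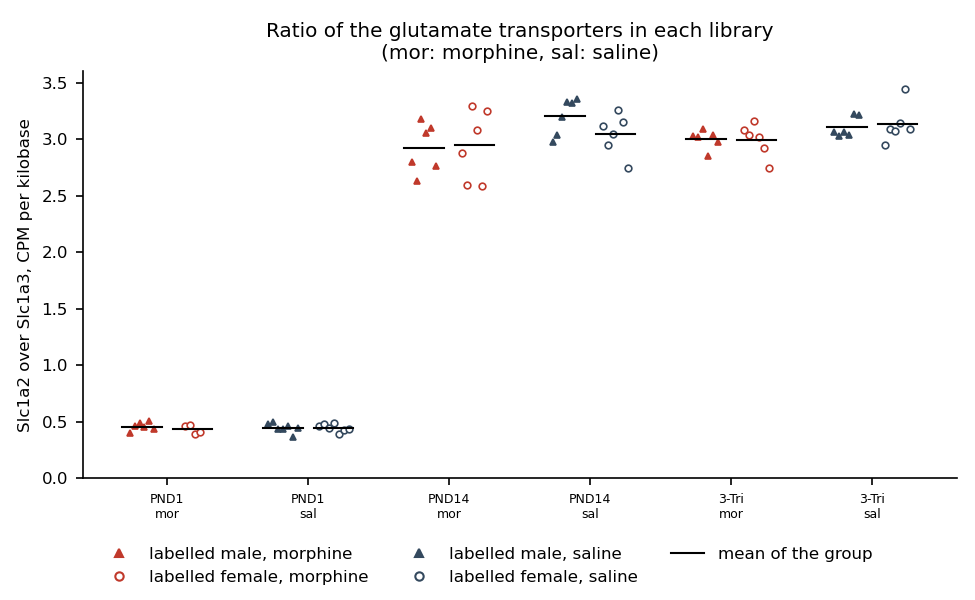
Ratio of Slc1a2 to Slc1a3, each in CPM per kilobase of exon, in each of the 72 libraries, with groups along the horizontal axis and the mean of each group as a bar. PND1 libraries lie at 0.504 or below and all day 14 libraries at 2.59 or above.

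Gfap encodes the intermediate filament of astrocytes, S100b a calcium-binding protein of mature astrocytes and some oligodendrocyte-lineage cells, and Aqp4 the water channel of astrocyte endfeet on vessels. Gfap had 212, 227 and 265 CPM in PND14 saline pups, against 26.5, 35.5 and 49.0 CPM in PND1 saline pups, a log2FC of 2.66 (SE 0.070, edgeR adjusted p = 2.31e-31). S100b was the least abundant member at PND1 and had 32.0, 35.5 and 49.5 CPM in PND14 saline pups, against 1.40, 1.99 and 3.83 CPM in PND1 saline pups (log2FC 4.08, SE 0.103, edgeR adjusted p = 5.27e-32). Aqp4 had 217, 243 and 332 CPM in PND14 saline pups, against 30.7, 57.2 and 71.6 CPM in PND1 saline pups (log2FC 2.23, SE 0.104, edgeR adjusted p = 1.09e-22). These were also the members that varied most among PND1 saline pups, with coefficients of variation of 34.5% for S100b, 26.4% for Aqp4 and 18.3% for Gfap, against 8.55% for Glul, the least variable.

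Both gap junction genes rose. Gja1 encodes connexin 43, present from early in the astrocyte lineage, and Gjb6 encodes connexin 30, which appears later. Gjb6 had 34.996, 38.7 and 45.6 CPM in PND14 saline pups, against 8.88, 12.8 and 16.1 CPM in PND1 saline pups, a 3.11-fold rise (log2FC 1.64, SE 0.070, edgeR adjusted p = 5.56e-24). Gja1 averaged 234 ± 13.3 CPM (SD, n = 12) in PND14 saline pups and 99.3 ± 14.7 CPM (SD, n = 14) in PND1 saline pups, a 2.35-fold rise (log2FC 1.23, SE 0.052, edgeR adjusted p = 4.26e-24). Gjb6 over Gja1 per kilobase was 0.493 to 0.771 in PND14 saline pups, against 0.381 to 0.561 in PND1 saline pups, and the ranges overlapped, unlike those of the transporters.

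Aldoc and Aldh1l1 are metabolic markers of astrocytes. Aldoc encodes the brain form of the glycolytic enzyme aldolase and had 395, 423 and 453 CPM in PND14 saline pups, against 87.6, 114 and 137 CPM in PND1 saline pups (log2FC 1.91, SE 0.060, edgeR adjusted p = 1.25e-28). Aldh1l1 encodes an enzyme of folate metabolism that is widely used to label all astrocytes. It had 61.8, 65.9 and 71.96 CPM in PND14 saline pups, against 54.2, 69.8 and 81.1 CPM in PND1 saline pups, and the PND14 values lay within the PND1 range. The log2FC of Aldh1l1 was -0.06 (SE 0.047, 95% confidence interval -0.16 to 0.03, edgeR adjusted p = 0.221), so a rise like that of the other 9 was outside its interval. With library totals in place of TMM scaling, which moved the median of all genes to -0.26, Aldh1l1 was at -0.29 (edgeR adjusted p = 4.02e-07).

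Per kilobase of exon, where genes can be compared with each other, the order of the 10 changed. In PND14 saline pups the mean levels were Glul 243, Slc1a2 226, Aldoc 130.3, Slc1a3 72.4, Gfap 54.6, Aqp4 39.8, S100b 24.7, Gja1 22.8, Gjb6 14.7 and Aldh1l1 14.7 CPM per kilobase. In PND1 saline pups they were Glul 64.9, Aldoc 34.6, Slc1a3 29.6, Aldh1l1 15.2, Slc1a2 13.2, Gja1 9.68, Gfap 8.59, Aqp4 8.42, Gjb6 4.71 and S100b 1.45 CPM per kilobase. Glul stood first at both ages, Slc1a2 went to the second place and Aldh1l1 to the last. Not all neighbours in these orders were separate. In PND14 saline pups 5 of 9 neighbouring pairs had libraries apart, and Glul and Slc1a2, Gfap and Aqp4, S100b and Gja1, and Gjb6 and Aldh1l1 overlapped. In PND1 saline pups only Glul and Aldoc, Slc1a3 and Aldh1l1, and Gjb6 and S100b were apart, which is 3 of 9 pairs.

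The summed level of the 10 genes was 798 to 953 CPM per kilobase in PND14 saline pups, against 154 to 218 in PND1 saline pups. Slc1a2 made up 26.8% of that sum in PND14 and 6.97% in PND1, and S100b 2.93% and 0.748%. Slc1a3 made up 8.58% in PND14 and 15.5% in PND1, and Aldh1l1 1.74% and 7.99%. Glul held 28.8% in PND14 and 34.2% in PND1 and Aldoc 15.5% and 18.1%, so these abundant enzymes kept places near the top.

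**Figure D2:**
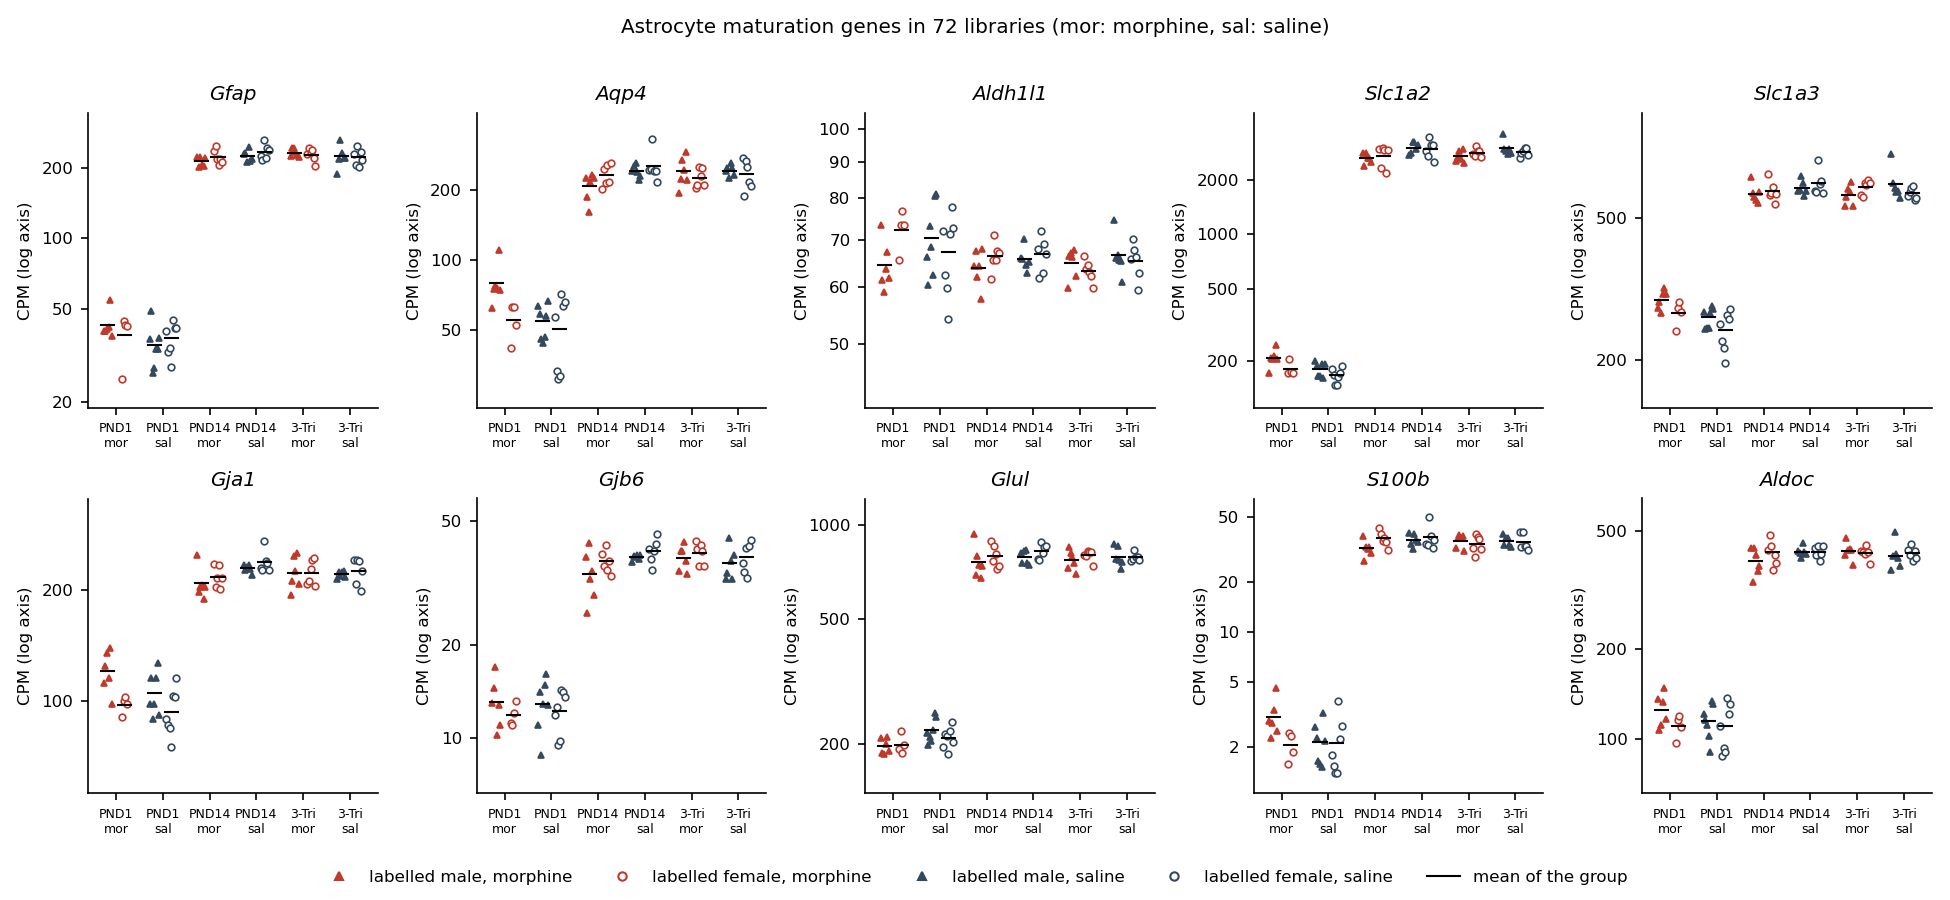
CPM of each of the 10 genes (log axis) in the 72 libraries, with triangles for labelled males, circles for labelled females, red for morphine, blue for saline and a bar for the mean of each group. In 9 panels the day 14 groups stand above the PND1 groups, and in the Aldh1l1 panel all groups lie between 54.2 and 81.1 CPM.

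3-Tri saline pups, a second cohort of the same age as PND14 by the study's methods, gave like values. Slc1a2 averaged 2907 ± 238 CPM, S100b 35.4 ± 3.199 CPM, Gfap 224 ± 20.4 CPM and Aldh1l1 65.9 ± 3.98 CPM in these 12 pups (SD). Against the same PND1 saline libraries, the same 9 genes rose, with 42.2% of all genes higher, and Slc1a2 (log2FC 4.06), S100b (4.02) and Gfap (2.63) again stood first, while Aldh1l1 was at -0.07 (edgeR adjusted p = 0.143). Between 3-Tri and PND14 saline pups edgeR called 0 genes, 683 (3.24%) had an unadjusted p under 0.05, and DESeq2 called 3. The 10 members differed by -0.07 to -0.01 in log2FC between these cohorts, all with edgeR adjusted p-values that rounded to 1.

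**Figure D3:**
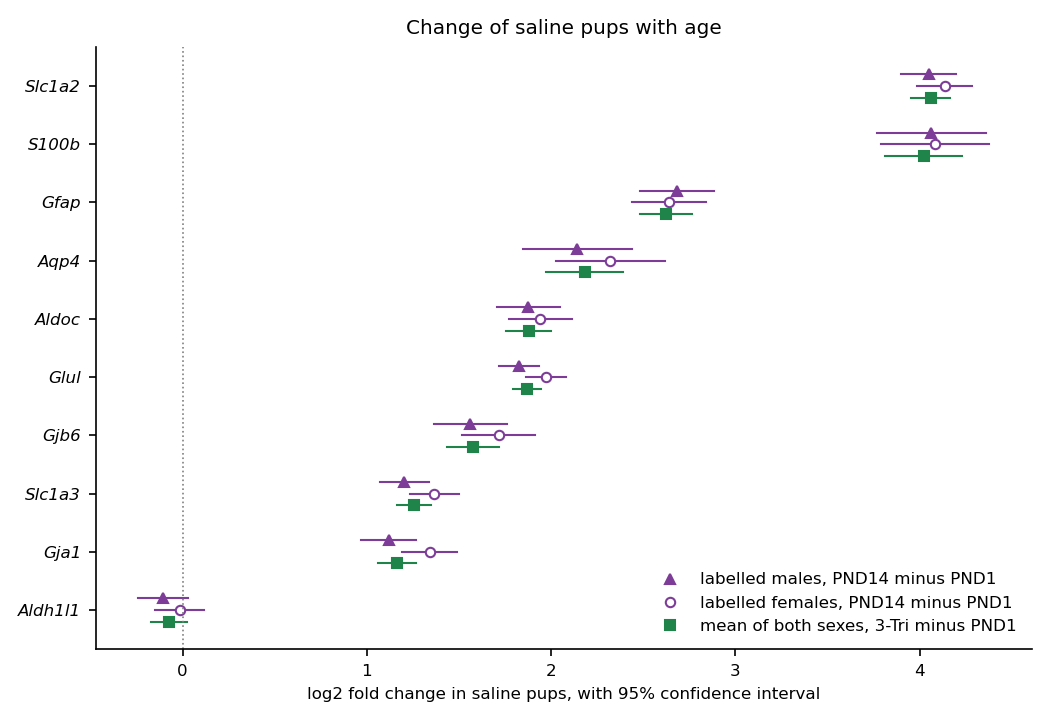
Log2 fold change with age in saline pups for each of the 10 genes, with 95% confidence intervals, for labelled males and labelled females (PND14 minus PND1) and for the mean of both sexes (3-Tri minus PND1, sharing the PND1 libraries). Slc1a2 and S100b lie above 4 in all 3 estimates and only Aldh1l1 has intervals that include 0.

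Other genes of the lineage moved with the members or apart from them. Of 42 other astrocyte homeostasis genes, 41 rose and 0 fell between PND1 and PND14 saline pups, with a median log2FC of 1.55. Those with the smallest p were Gpr37l1 (log2FC 5.10), a receptor of mature astrocytes, Ntsr2 (3.85), a neurotensin receptor, Dio2 (3.44), which activates thyroid hormone, and Htra1 (3.19), a secreted protease. Of 15 genes listed as secreted synapse factors 11 rose and 3 fell, among them Sparcl1 (1.85), Lgi4 (2.98), Gpc5 (2.21) and Tnc (-2.71). That list also held the membrane receptors Megf10 and Mertk, which are not secreted. Of 24 radial glia and immature astrocyte genes, a list that shares Slc1a3 with the members, 8 rose and 10 fell with a median of -0.08, and Tnc (-2.71), an extracellular matrix protein, and Cdh4 (-1.33), a cadherin, fell, while Lix1 (1.46) rose. Of 29 reactive astrocyte genes tested, 12 rose and 9 fell with a median of 0.18, with Ptgs2 (3.36) and Serpina3n (2.12) higher and Vim (-1.35), an intermediate filament of immature glia, and Fkbp5 (-0.73) lower.

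Markers of other cells also differed between these saline pups. All 12 oligodendrocyte markers rose, with a median log2FC of 5.12 and a sum of 4517 to 6567 CPM in PND14 saline pups, against 201 to 283 CPM in PND1 saline pups. Of 15 neuronal markers 10 rose and 5 fell (median 1.31), and 10 of 10 microglial markers (median 1.29) and 9 of 10 endothelial and mural markers (median 0.84) rose. Of 22 hindbrain and spinal cord markers 12 passed the filter on low counts, and of these 11 fell and 0 rose. A gene could pass that filter through PND1 alone, which favours falls, so this count is not a free test of direction. Over 20 of the markers the sum was 5.82 to 13.2 CPM in PND14 saline pups, against 21.9 to 98.6 CPM in PND1 saline pups. The part of these other markers in the changes of the 10 genes was not tested.

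Few of the 10 genes were called under morphine, each with a smaller change than it had with age. In PND1 males Aqp4 was 1.46-fold higher, where 14.4% of all genes were called. In the PND1 mean of both sexes Slc1a3 and Slc1a2 were 1.12-fold higher each, where 16.8% of all genes were called. These calls ended when counts were corrected for the GC content and length of genes. In PND14 and 3-Tri 0 members were called, where 1.69% and 0% of all genes were called in the mean of both sexes. Morphine and saline libraries of a window and sex overlapped for all 10 genes in all 6 groups, where 0.182% to 2.59% of all genes were without overlap.

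In PND1 males 14.4% of 21714 genes were DEGs and 1 of 10 members was called. Aqp4 had 62.1, 75.1, 77.6, 75.8, 111 and 74.6 CPM in PND1 male morphine pups, replicates 5 to 10, against 63.1, 58.3, 45.4, 43.8, 46.5, 57.4 and 66.5 CPM in PND1 male saline pups, replicates 8 to 14. Of the 6 morphine pups 5 lay above every saline pup, and the log2FC was 0.54 (SE 0.178, edgeR adjusted p = 0.0394), with 6.31% of all genes called higher and 8.08% lower. The call ended without any 1 of the male morphine replicates 6, 7, 8, 9 or 10 or of the male saline replicates 9, 10, 11 or 12, so in 9 of 13 fits, over which the log2FC was 0.42 to 0.61 (edgeR adjusted p 0.0191 to 0.14). When counts were corrected for the GC content and length of genes, 0 of the 10 members were called in PND1 males.

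Sums of the hindbrain and spinal cord markers varied widely among PND1 pups. Over 20 of the 22 markers, the sum was 46.9 to 164 CPM in PND1 male morphine pups, against 23.5 to 96.4 CPM in PND1 male saline pups, and 37.3 to 76.4 CPM in PND1 female morphine pups, against 21.9 to 98.6 CPM in PND1 female saline pups. Among male morphine pups, replicate 9 had the highest Aqp4 and the highest sum. Replicate 5, whose sex genes went against its label, had a sum of 112 CPM and Aqp4 at 62.1 CPM. Replicate 7 had a sum of 46.9 CPM and Aqp4 at 77.6 CPM. A relation between the sum and Aqp4 over these pups was not tested. Of the markers, 3 of the 20 (Hoxb8, Hoxb7 and Hoxc5) rose and 1 (En2) fell in PND1 male morphine pups, with a median log2FC of 1.52. With the log2 of that sum as a covariate, a fit added after seeing the data, Aqp4 was at 0.29 (edgeR adjusted p = 0.21) and no longer called, while Glul (-0.21, edgeR adjusted p = 0.0312) and Aldh1l1 (-0.24, edgeR adjusted p = 0.0126) were.

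**Figure D4:**
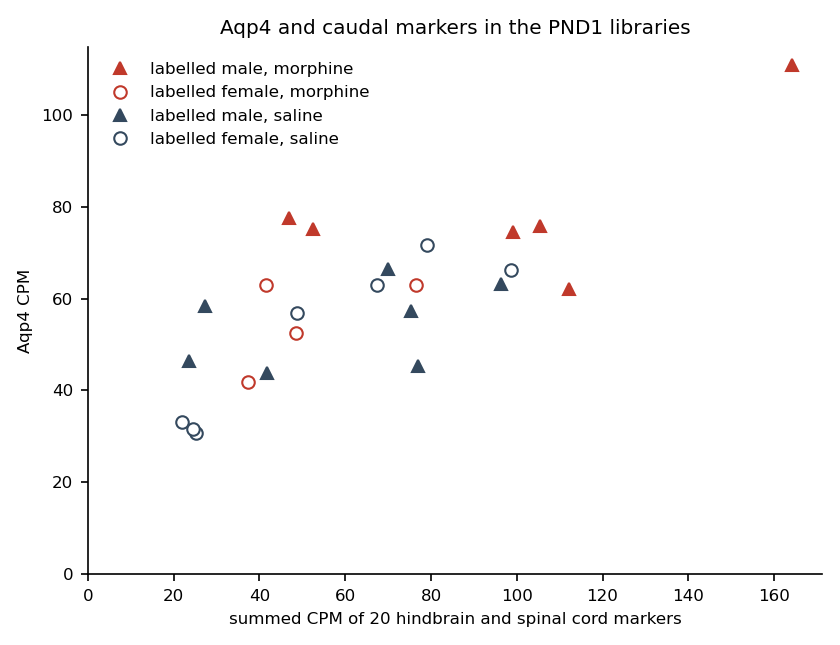
Aqp4 in CPM (vertical axis) against the summed CPM of 20 hindbrain and spinal cord markers (horizontal axis) in the 24 PND1 libraries, with triangles for labelled males, circles for labelled females, red for morphine and blue for saline. The male morphine library at 164 CPM of markers and 111 CPM of Aqp4 stands apart from the rest.

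The other members nearest the threshold in PND1 males were Glul, Slc1a2 and Slc1a3. Slc1a2 had 171, 207 and 246 CPM as lowest, median and highest value in male morphine pups, against 160, 188 and 201 CPM in male saline pups, and 5 of 6 morphine pups lay above all saline pups (log2FC 0.21, edgeR adjusted p = 0.0571). Slc1a3 had 271.36, 298 and 317 CPM in male morphine pups, against 245, 271.38 and 283 CPM in male saline pups (log2FC 0.17, edgeR adjusted p = 0.0963). Glul ran the other way, with 186, 196 and 211 CPM in male morphine pups, against 199, 218 and 252 CPM in male saline pups (log2FC -0.17, edgeR adjusted p = 0.0536). In all, 7 of the 10 members had an unadjusted p under 0.05, a level that 29.9% of all genes reached, and the median log2FC of the 10 was 0.18, against 0.01 over all genes.

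In PND1 females edgeR called 0 of 21714 genes, while 2547 (11.7%) had an unadjusted p under 0.05, and DESeq2 called 139, of which 0 were members. Slc1a3 was the only member with an unadjusted p under 0.05. It had 241, 280.5, 290 and 272 CPM in the 4 female morphine pups, against 196, 252 and 278 CPM as lowest, median and highest value in the 7 female saline pups, and 2 of the 4 morphine pups lay above all saline pups (log2FC 0.16, edgeR adjusted p = 0.399). Aqp4 had 41.9, 62.9, 63.0 and 52.6 CPM in PND1 female morphine pups, within the range of 30.7 to 71.6 CPM in PND1 female saline pups.

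Averaged over the sexes, 16.8% of genes were DEGs in PND1 and 2 members were called, both higher, where 7.39% of all genes were higher and 9.43% lower. At an unadjusted p under 0.05 stood 4 of the 10 members and 30.9% of all genes. Slc1a3 had a log2FC of 0.16 (SE 0.051, edgeR adjusted p = 0.0266) and Slc1a2 of 0.16 (SE 0.055, edgeR adjusted p = 0.0437), so both transporters were about 1.12-fold higher. Glul (-0.12, edgeR adjusted p = 0.0612) and Aqp4 (0.33, edgeR adjusted p = 0.0864) did not pass. The Slc1a3 call ended in 7 of 24 fits that left out a library (female morphine replicates 2, 3 and 4, male morphine replicates 8 and 9, and male saline replicates 9 and 11), where the log2FC over all 24 was 0.14 to 0.19. The Slc1a2 call ended in 16 of 24 such fits (0.13 to 0.19), namely female morphine replicates 2 to 4, male morphine replicates 6 to 10, female saline replicates 2 to 5 and male saline replicates 9, 10, 11 and 13. With the caudal marker sum as a covariate Slc1a3 was at 0.11 (edgeR adjusted p = 0.0682) and Slc1a2 at 0.14 (edgeR adjusted p = 0.102), neither of them called, while Glul was (-0.15, edgeR adjusted p = 0.031). The same GC and length correction left 0 members called in this mean.

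The wider lists did not share 1 direction in PND1 males, where 6.31% of all genes were higher and 8.08% lower. Of 42 other homeostasis genes 8 rose and 0 fell (median log2FC 0.17), among them Kcnj16 (0.67), a potassium channel, Gabrg1 (0.35), a GABA receptor subunit, and Atp1b2 (0.26), a sodium pump subunit. Of the 15 genes listed as secreted synapse factors 2 rose, Gpc5 (0.41) and Gpc6 (0.31), both glypicans, and Lgi4 (-0.52) fell. Of 24 radial glia genes Ptprz1 (0.18), a phosphatase of glial precursors, rose and Nes (-0.20), the filament nestin, fell. Of 29 reactive astrocyte genes 1 rose and 4 fell, among them Fkbp5 (-0.21), a glucocorticoid-induced chaperone, and the class I genes H2-T23 (-0.59) and H2-D1 (-0.20).

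In PND14 pups all 10 members were below 0 in the mean of both sexes and 0 were called by edgeR, where 47.1% of genes were below 0 and 332 genes (1.69%) were DEGs, 0.626% higher and 1.06% lower. In this comparison 4 of the 10 members had an unadjusted p under 0.05, as did 16% of all genes. The gap junction gene Gja1 came closest, with 189, 204 and 249 CPM in male morphine pups, against 220.291, 229 and 234 CPM in male saline pups, and 201, 216 and 236 CPM in female morphine pups, against 227, 233 and 272.5 CPM in female saline pups. Of the 6 male morphine pups 5 lay below all male saline pups and 1, replicate 1 at 249 CPM, above all of them. The log2FC of Gja1 was -0.13 (SE 0.041, edgeR adjusted p = 0.0922). DESeq2 called Gja1 (-0.13, DESeq2 adjusted p = 0.0273), as did edgeR without male morphine replicate 1 and without the animals of 1 ID number, where Gjb6 was called too. Those were 2 of 28 fits that left out a library or an ID number, over which the log2FC was -0.16 to -0.10 (edgeR adjusted p 0.0139 to 0.406). Leaving out an ID number kept only 1 ID number in that drug arm.

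The other members with an unadjusted p under 0.05 in that mean were Slc1a2 (log2FC -0.15, edgeR adjusted p = 0.152), Gjb6 (-0.16, edgeR adjusted p = 0.172) and Aqp4 (-0.16, edgeR adjusted p = 0.19). Slc1a2 had 2383, 2631 and 2812 CPM in PND14 male morphine pups, against 2724, 3013 and 3236 CPM in PND14 male saline pups, and 4 of 6 morphine pups lay below all saline pups. Within PND14 males 55 genes (0.28%, with 0.0815% higher and 0.199% lower) were DEGs and 0 of them members, and 4 of the 10 members had an unadjusted p under 0.05, as did 9.29% of all genes, with Slc1a2 at -0.19, Gja1 at -0.13, Gjb6 at -0.20 and Aqp4 at -0.20 (edgeR adjusted p 0.423, 0.461, 0.461 and 0.461). Within PND14 females 0 genes were called by edgeR, 2054 had an unadjusted p under 0.05 (10.5%), Gja1 being the only such member (-0.13, edgeR adjusted p = 0.435), and DESeq2 called 28 genes and 0 members. Oligodendrocyte markers were lower in the PND14 mean of both sexes, where 8 of 12 were called (median log2FC -0.38), with 7 of 12 called in males and 0 of 12 in females. Their sum was 2944 to 5628 CPM in PND14 male morphine pups, against 5091 to 6500 CPM in PND14 male saline pups, and 3821 to 5198 CPM in PND14 female morphine pups, against 4517 to 6567 CPM in PND14 female saline pups, and the ranges overlapped in both sexes. Whether fewer oligodendrocyte transcripts had a part in the values of the 10 genes was not tested. Of the other homeostasis genes only Plpp3 (-0.14), a lipid phosphatase, was called, and C3 (0.77), a complement gene, rose among the reactive genes.

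In 3-Tri pups 0 genes were called in females, males or their mean by edgeR or DESeq2, while 476 (2.41%), 982 (4.98%) and 963 (4.88%) had an unadjusted p under 0.05. Slc1a2 was the only member among those in males, at 2483, 2627 and 2956 CPM in male morphine pups, against 2767, 2895 and 3581 CPM in male saline pups (log2FC -0.16, edgeR adjusted p = 0.92). The highest of these saline values, replicate 1, came from the library with the lowest depth of all (3113919 counts), and without it the log2FC was -0.09. In the mean of both sexes Slc1a2 was at -0.08 (edgeR adjusted p = 0.97), and the 10 members lay between -0.08 and 0.05.

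**Figure D5:**
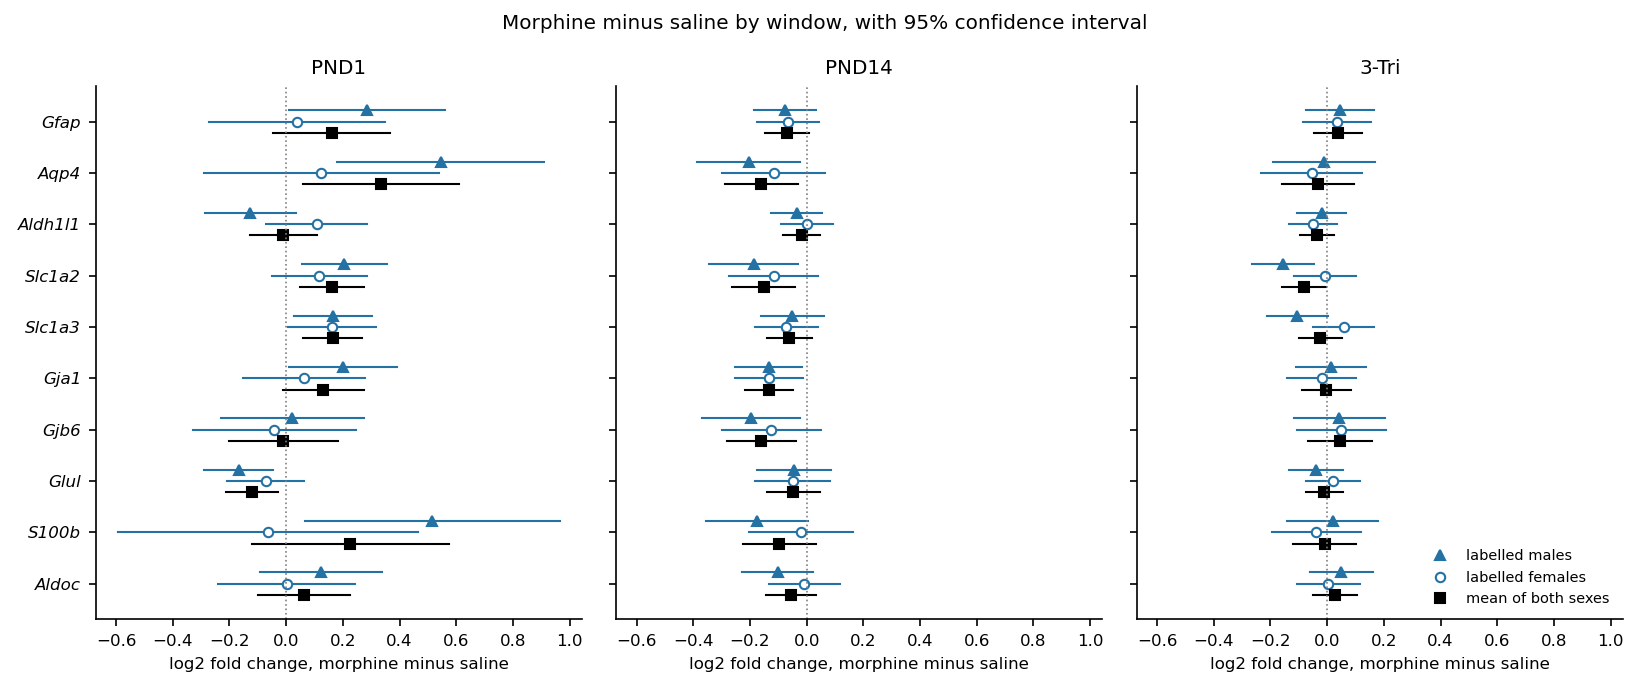
Log2 fold change of morphine minus saline with 95% confidence intervals for the 10 genes in PND1, PND14 and 3-Tri, for labelled males (triangles), labelled females (circles) and their mean (squares). In PND1 most estimates lie right of 0 with Glul left of it, in PND14 the 10 means lie left of 0, and in 3-Tri they lie between -0.08 and 0.05.

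The difference between windows was tested itself, in a fit of all 72 libraries. The morphine effect of PND14 minus that of PND1 was lower for 4 of the 10 members, where 13.3% of 22010 genes were called and 6.07% were lower. These were Aqp4 (-0.50, SE 0.140, edgeR adjusted p = 0.0107), Slc1a2 (-0.32, SE 0.073, edgeR adjusted p = 0.00206), Gja1 (-0.27, SE 0.078, edgeR adjusted p = 0.0139) and Slc1a3 (-0.23, SE 0.061, edgeR adjusted p = 0.00735). Of the 42 other homeostasis genes 15 were lower and 1 higher in this comparison. For 3-Tri minus PND1, 2 members were lower, Slc1a2 (-0.24, edgeR adjusted p = 0.0276) and Slc1a3 (-0.19, edgeR adjusted p = 0.0416), where 8.43% of genes were called and 3.85% were lower. Both differences use the same PND1 libraries, and with the GC and length correction 2 members were called in PND14 minus PND1 and 0 in 3-Tri minus PND1. The caudal marker covariate was not fitted for differences between windows. Within PND14 and 3-Tri no ID number was shared between drugs, so drug and ID number cannot be told apart on that side. For 3-Tri minus PND14 40 genes (0.182%) were called and 0 of them members, with 1 member (Gjb6, 0.21, edgeR adjusted p = 0.524) at an unadjusted p under 0.05.

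Labelled sex made no called difference to the 10 genes. In saline pups edgeR called 0 genes between males and females in any window, while 1974 (9.37%) in PND1, 700 (3.32%) in PND14 and 464 (2.2%) in 3-Tri had an unadjusted p under 0.05. The largest male minus female difference of a member was in PND1 for Gja1, with 89.3, 98.2 and 127 CPM in males, against 74.9, 89.2 and 115 CPM in females (log2FC 0.16, edgeR adjusted p = 0.472). The male minus female difference of the morphine effect was called for 0 genes in each window by edgeR and by DESeq2, while 1187 (5.47%) in PND1, 676 (3.44%) in PND14 and 457 (2.32%) in 3-Tri had an unadjusted p under 0.05. For Aqp4 in PND1 it was 0.42, with a 95% confidence interval of -0.14 to 0.98, so the call in males alone does not show that the sexes differed. With 4 of 24 PND1 and 12 of 24 3-Tri libraries against their label, these tests compare the labels. In PND14 the sex chromosome genes went against the label in 0 of 24 libraries, yet the saline test called none of those genes either. That test was fitted together with the PND1 and 3-Tri saline libraries. Its count of 0 therefore cannot show that PND14 males and females were alike.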

How the data were processed

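RNA of 72 brain samples was sequenced as paired reads, and the authors deposited 1 table of raw counts per gene and library (counts, not normalized). Per the submitters' processing notes, reads were trimmed with Trim Galore 0.6.6, aligned to mm10 with HISAT2 2.2.1 and counted with featureCounts 2.0.1. The study's methods add that duplicates were removed, which lowers the counts of the most abundant genes. The authors also deposited DESeq2 tables (DESeq2 1.36.0, R 4.2.1). From these only symbols and the mean signal were used, the deposited mean of size-factor scaled counts, which matched all 24 PND1 libraries, 23 PND14 libraries (without female morphine replicate 4) and 23 3-Tri libraries (without male saline replicate 1). Their columns of fold changes and p-values hold the authors' own comparisons and were not used.

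Counts were tested in R 4.3.3 with edgeR 4.0.16: filterByExpr (minimum count 10, minimum total 15), TMM scaling, 1 coefficient per group of window, labelled sex and drug, and the quasi-likelihood test. Saline contrasts used the 38 saline libraries, drug contrasts the 24 libraries of a window and window differences all 72. The 38 saline libraries were 14 of PND1, 12 of PND14 and 12 of 3-Tri. CPM per kilobase used the exon length of GENCODE M21, whose identifiers matched 55141 of 55401 genes. DESeq2 1.42.0 and limma 3.58.1 gave alternatives, and plots were drawn with Python 3.11.15 and matplotlib 3.10.9. Steps were tested on simulated counts. No library repeated another of its group within counting noise (lowest chi-square per gene 1.64 over 183 pairs). Litters were not given. What the number that opens the day 14 sample IDs stands for (litter, dam or cage) is not stated either, and each day 14 drug arm of 12 pups came from only 2 such numbers, none shared between drugs, so drug and ID number cannot be told apart and p-values measure the spread between these pups.

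Every member was named with its level and its saline change. In a drug contrast, members past an adjusted p of 0.05 were named, with up to 4 of the smallest unadjusted p, and from each other list up to 4 genes by p with age and 3 under a drug. The members, lists and tests were chosen with earlier results of these data known. Genes named beyond this rule, and the ratios and the marker covariate, were chosen after seeing the data. Alternatives were another scaling, no filter, DESeq2, a lowess correction for GC content and length (span 0.3), a replicate block, other sets of libraries in the fit, and leaving out each library, each ID number, the libraries against their sex label and those the authors left out.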

Additional observations from a re-analysis of the deposited data

Results flagged for a closer look

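Of 120 groups of 4, 6 or 7 libraries (10 genes in 12 groups), 12 held a library whose gap to its nearest neighbour passed the 95% limit of Dixon's test, and chance flags about 1 in 20. PND14 female saline replicate 6 accounted for 4 of them, with Aqp4 at 332 CPM (others 217 to 247), Slc1a3 at 729 CPM (588 to 637), Gja1 at 272.5 CPM (227 to 239) and S100b at 49.5 CPM (32.5 to 37.96), at a depth of 8174598 counts. In PND1 male morphine replicate 9, Aqp4 was 111 CPM (others 62.1 to 77.6) and Gfap 54.5 CPM (38.4 to 41.6). In 3-Tri male saline replicate 1, which the authors left out of their tables and which had the lowest depth, Slc1a2 was 3581 CPM (others 2767 to 2954) and Slc1a3 758 CPM (567.979 to 628). The remaining libraries each stood apart in 1 gene. Gfap was 25.1 CPM in PND1 female morphine replicate 1 (others 42.1 to 44.3), and Slc1a2 was 205 CPM in PND1 female morphine replicate 2 (others 171 to 174). Gja1 was 249 CPM in PND14 male morphine replicate 1 (others 189 to 207), and Glul was 831 CPM in 3-Tri female saline replicate 7 (others 769.553 to 792).

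The morphine effect differed between windows by the interaction test for 4 members in PND14 minus PND1, namely Aqp4 (-0.50), Slc1a2 (-0.32), Gja1 (-0.27) and Slc1a3 (-0.23), and for 2 in 3-Tri minus PND1, Slc1a2 (-0.24) and Slc1a3 (-0.19). In each of these the estimate for the mean of both sexes was above 0 in PND1 and below 0 in the later window. A change of sign was not shown, because edgeR called none of these members in PND14 or 3-Tri. In 3-Tri, Slc1a3 was at -0.02 in the mean, with 0.06 in females and -0.11 in males. In the PND1 mean, Aqp4 (0.33, edgeR adjusted p = 0.0864) and Gja1 (0.13, edgeR adjusted p = 0.203) were not called either. PND1 differs from the other windows in age, cohort and route of morphine, and these cannot be told apart. Within PND14 and 3-Tri, drug and ID number cannot be told apart either.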

How the results depend on the processing

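For the saline change with age, the same count of 9 members was called in PND14 minus PND1 under the other alternatives, and the count was 10 with library totals, where Aldh1l1 was called lower. For 3-Tri minus PND1 it was 9, against 10 with library totals and 10 with DESeq2 size factors. Under morphine in PND1 males, 1 member was past the threshold in the reported fit, against 2 with DESeq2 size factors, 3 with DESeq2, 2 with only the 2 groups compared, 3 without the libraries whose sex genes go against the label, 0 with the correction for GC content and gene length, 2 with the caudal marker covariate (added after seeing the data) and 0 to 3 when a library was left out. In the mean of both sexes in PND1 the count was 2, against 1 without a filter on low counts, 0 with the GC and length correction, 1 with the covariate and 0 to 3 when a library was left out. For morphine minus saline in the mean of both sexes in PND14 it was 0, against 1 (Gja1) with DESeq2, 1 with limma and the ID number as a random effect, and 0 to 2 when a library or ID number was left out. The correlation within an ID number in that limma fit was -0.0225. No ID number held both drugs, so that fit cannot separate drug from ID number. For the window difference PND14 minus PND1 it was 4, against 2 with the GC and length correction, and for 3-Tri minus PND1 it was 2, against 1 without a filter, 0 with that correction and 0 without the libraries against their sex label. No member turned its direction past the threshold. Leaving out single libraries was not run for the differences between windows. The causes were not tested.

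Samples with the same replicate number in the titles had correlations of -0.377 to 0.46 over all comparisons, reaching 0.418 in 3-Tri females and 0.46 in 3-Tri males. Samples with different numbers were not compared. The numbers run on through the pups of a drug in a window, so PND1 number 5 is a male morphine pup and a female saline pup. At day 14 the same number joins pups whose ID numbers were not shared between drugs. The titles thus give no ground for pairing by number, and a block on the numbers groups pups arbitrarily. With the numbers as a replicate block the counts of members were 2 in PND1 males (S100b and Slc1a2) and 6 in the PND1 mean. With that block plus the same correction they were 0 in PND1 males, 4 in the PND1 mean, 1 for PND14 minus PND1 and 0 for 3-Tri minus PND1.

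Counts of DEGs moved too. In PND1 males there were 3124, against 1828 with the block, 1166 with the correction, 82 with both, 2066 with only 2 groups and 1564 with the covariate. In the PND1 mean there were 3653, against 1814 with the correction and 1393 with both. In the PND14 mean there were 332, against 680 with DESeq2, 644 with limma, 98 with the block and 163 with both. In PND14 males there were 55, against 196 with DESeq2, 124 with only 2 groups, 101 with limma and 31 with the block. DESeq2 called 139 in PND1 females and 28 in PND14 females, where edgeR called 0. For the window difference 3-Tri minus PND14 there were 40, against 74 with DESeq2 and 25 without a filter. For PND14 minus PND1 there were 2931, against 1531 with the correction and 1728 with both, and for 3-Tri minus PND1 1855, against 1124 without a filter, 887 with the correction and 931 with both.

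In PND1, S100b at 1.40 to 3.83 CPM in saline pups had the lowest level of the 10 and the widest error under morphine (SE 0.219 in males and 0.258 in females).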
